A study of Mus musculus with 12 samples.

Results

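This comparison sets CD4 T cells low in both CD62L and PSGL1 against CD4 T cells high in both, across all 18193 genes with a named probe set. Its members are 6 of the 12 arrays of the series: 3 titled CD62Llo PSGL1lo, called double-low here, and 3 titled CD62Lhi PSGL1hi, called double-high. All cells came from the spleens of female MRL/Faslpr mice, a lupus-prone strain whose Fas gene, encoding a death receptor, is mutant in every group, the reference cells included. Both populations were taken from mice of 16 to 24 weeks through a TCRb+ CD4+ B220- CD44+ gate, so the sort left out the B220+ T cells that build up in this strain. The CD62Llo PSGL1hi cells of the same gate (3 arrays) and CD62Lhi CD44lo naive cells of mice aged 6 to 8 weeks (3 arrays) serve as further reference levels. For naive cells, population and age cannot be told apart. RNA was hybridised to Affymetrix Mouse Genome 430 2.0 arrays.

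CD62L brings naive and central memory cells into lymph nodes, and activated cells shed or stop making it. PSGL1, encoded by Selplg, carries the sugars that selectins bind on inflamed vessels. CD4 cells that help B cells form antibodies in and beside the follicle depend on the repressor Bcl6 and secrete interleukins 4 and 21, while cells that leave for inflamed tissue use Prdm1, T-box factors and inflammatory chemokine receptors.

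The deposited values divide each probe set by the median it had across all 12 arrays, so a ratio of 1 is the middle of the series for that gene and ratios of different genes say nothing about which is more abundant. Differences are log2 of double-low over double-high ± SE from limma (n = 3 arrays each), and a gene was called at an adjusted p under 0.05 over all genes. The median SE was 0.118. Whether a group's 3 arrays are technical replicates, as titled, or 3 independent sorts, as the design text has it, is unsettled; p-values therefore reflect spread among arrays alone, which may be technical. Double-low replicate 2 lay apart from its group most: its median log2 ratio over all genes was -0.072, against 0.024 and 0.001 in double-low replicates 1 and 3 and -0.009 to 0.006 in the double-high arrays. In bulk RNA, fewer cells of a type and less RNA per cell cannot be told apart.

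Most of the listed B cell helper genes were higher in double-low cells, and most of the listed mitosis genes and Th1 and cytotoxic genes were lower. Single genes with higher RNA included Il4, Tnfsf8 and Hif1a, and those with lower RNA included Foxp3, Klf2 and S1pr1. In all, 2693 genes were called, 14.8% of those tested, with 1219 higher (6.70%) and 1474 lower (8.10%) in double-low cells. Each list count of this comparison is to be read against these shares of all genes. Of the called genes, 299 higher (1.64% of all genes) and 430 lower (2.36%) also passed a 2-fold difference. The split turned to 1589 higher and 1217 lower without double-low replicate 2, with 2294 calls shared. The arrays of the groups did not overlap for 4213 genes (23.2%), with double-low higher for 10.5% and lower for 12.7% of all genes. Among 10092 probe sets without a single gene symbol, not described further, 339 were higher (3.36%) and 268 lower (2.66%), adjusted over all probe sets.

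The sort was visible in the RNA of Selplg, at 0.118, 0.127 and 0.153 in double-low cells, against 0.95, 1.07 and 1.11 in double-high cells. Every double-low array lay below every double-high array, by -2.98 ± 0.12 (adjusted p = 7.81e-11). Cd44, which encodes the hyaluronan receptor used in the shared gate, was 0.54 ± 0.12 higher (adjusted p = 0.00366). Fas was at 1.31, 1.41 and 1.15 in double-low cells, against 0.995, 1.06 and 0.816 in double-high cells. The arrays did not overlap, and the difference of 0.43 ± 0.14 missed the threshold (adjusted p = 0.0541) but passed it with the replicate number as a block (adjusted p = 0.00892). Cd4, the coreceptor gene of the sorted cells, was 0.59 ± 0.10 higher, and Zap70, the kinase recruited to the T cell receptor, 0.91 ± 0.12 higher (adjusted p = 3.89e-05). Both were among 11 genes of T cell identity, of which these 2 (18.2%) were called higher and 0 lower by limma.

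The gene of the helper cell repressor itself, Bcl6, was at 4.3, 4.06 and 4.89 in double-low cells, against 1.03, 0.911 and 0.813 in double-high cells. The groups were far apart, with a difference of 2.27 ± 0.14 (adjusted p = 8.5e-09). Prdm1, which encodes Blimp-1, the repressor that opposes Bcl6, went the other way. It was at 0.391, 0.347 and 0.316 in double-low cells, against 2.25, 2.4 and 1.61 in double-high cells, a difference of -2.56 ± 0.14. Ascl2, a basic helix-loop-helix factor that drives CXCR5 expression in mouse helper cells, had the largest rise of all genes. It stood at 50.5, 29.4 and 37 in double-low cells, against 0.926, 0.824 and 0.646 in double-high cells. The difference was 5.59 ± 0.36, 48.1-fold.

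Of 30 follicular helper and B cell help genes, 21 were called higher (70%, against 6.70% of all genes) and 1 lower (3.33%, against 8.10%), and the median difference was 0.83, against -0.005 over all genes. The list was compiled with earlier results of these arrays known, so its count is no independent evidence of direction. Sostdc1, a secreted antagonist of BMP and Wnt signals, was at 22.2, 14.7 and 19.7 in double-low cells, against 0.585, 0.536 and 0.435 in double-high cells (5.17 ± 0.28). Cebpa, best known as a myeloid transcription factor, was 2.88 ± 0.21 higher and the pleckstrin homology protein gene Plekho1 2.67 ± 0.17 higher. Pdcd1, the gene of the inhibitory receptor PD-1, was at 4.17, 2.85 and 4 in double-low cells, against 1.03, 0.855 and 0.806 in double-high cells (2.02 ± 0.15). Btla, the gene of another inhibitory receptor, was 1.73 ± 0.17 higher, and Cd200, which encodes a ligand that restrains myeloid cells, 0.92 ± 0.18 higher.

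Some members often used to mark helper cells did not pass the test. Icos, which encodes a costimulatory receptor, was at 1.32, 1.02 and 0.977 in double-low cells, against 1.2, 1.26 and 0.863 in double-high cells. These arrays overlapped throughout, and the difference was 0.00 ± 0.17 (adjusted p = 0.995). Cd40lg, the ligand through which T cells license B cells, differed by 0.11 ± 0.11 (adjusted p = 0.658). The adaptor gene Sh2d1a, which encodes SAP, was at -0.58 ± 0.20 (adjusted p = 0.0619; 0.0489 with the replicate block). Maf, a factor that activates Il4 and Il21, was 0.93 ± 0.25 higher (adjusted p = 0.0185), and its call was lost without double-low replicate 1 (0.0729), without double-low replicate 3 (0.0522) or without double-high replicate 3 (0.0861). Cxcl13, a B cell attractant that human rather than mouse helper cells secrete, was the 1 member called lower, at -0.79 ± 0.17; with the replicate block, which also took in Sh2d1a, 2 were lower.

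**Figure D1:**
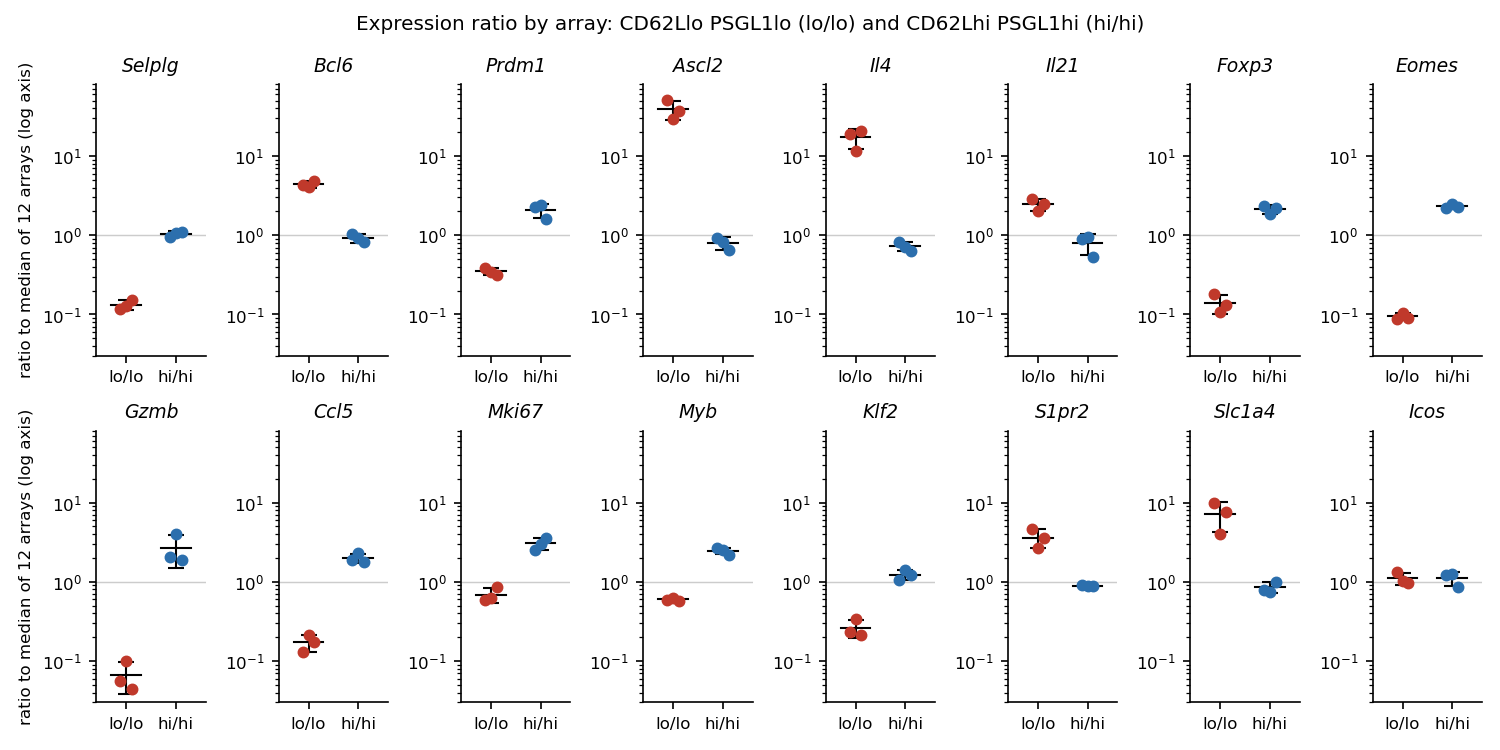
Ratio to the median of 12 arrays (log axis) for 16 genes in the 3 double-low arrays (red, left) and the 3 double-high arrays (blue, right); bars give the mean ± SD. Bcl6, Ascl2, Il4, Il21, S1pr2 and Slc1a4 lie higher in every double-low array, Selplg, Prdm1, Foxp3, Eomes, Gzmb, Ccl5, Mki67, Myb and Klf2 lie lower in every one, and Icos overlaps.

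Among secreted products, Il4, the cytokine that directs IgG1 and IgE switching, stood at 18.9, 11.7 and 20.9 in double-low cells, against 0.824, 0.711 and 0.641 in double-high cells. It differed by 4.53 ± 0.26, 23-fold (adjusted p = 5.11e-09). Il21, which supports germinal centre B cells and plasma cells, was at 2.87, 2.05 and 2.47 in double-low cells, against 0.91, 0.954 and 0.528 in double-high cells (1.66 ± 0.20). Il5, which lies in the same Th2 cytokine cluster as Il4, differed by 0.11 ± 0.12 (adjusted p = 0.705). Il10, an anti-inflammatory cytokine gene, was at 0.2, 0.215 and 0.207 in double-low cells, against 2.34, 2.39 and 1.78 in double-high cells. It had the lowest difference among the cytokines and TNF family ligands, -3.38 ± 0.13 (10.4-fold lower). Ifng, the Th1 cytokine gene, was lower by -1.41 ± 0.18, and Penk, the precursor gene of the enkephalin opioid peptides, by -1.67 ± 0.22.

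Ligands of the TNF family split in both directions. Tnfsf8, which encodes CD30 ligand, was at 4.75, 5.93 and 6.78 in double-low cells, against 0.486, 0.76 and 0.541 in double-high cells (3.30 ± 0.20, 9.85-fold). Tnfsf13b, which encodes the B cell survival factor BAFF, was at 4.21, 3.15 and 2.93 in double-low cells, against 0.728, 0.551 and 0.597 in double-high cells (2.45 ± 0.16; 1.00 as the mean of its probe sets). For both genes every double-low array lay far above every double-high array. Tnfsf11, the gene of RANKL, which drives osteoclast and stromal maturation, was 2.22 ± 0.20 higher. Fasl, the gene of the ligand of the death receptor Fas, was at 0.32, 0.254 and 0.342 in double-low cells, against 2.5, 2.33 and 1.66 in double-high cells (-2.81 ± 0.16). Tnfsf4, which encodes OX40 ligand, was -1.60 ± 0.18 lower. Of 36 cytokine and TNF ligand genes, 11 were called higher (30.6%, against 6.70% of all genes) and 7 lower (19.4%, against 8.10%), with a median of 0.03.

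**Figure D2:**
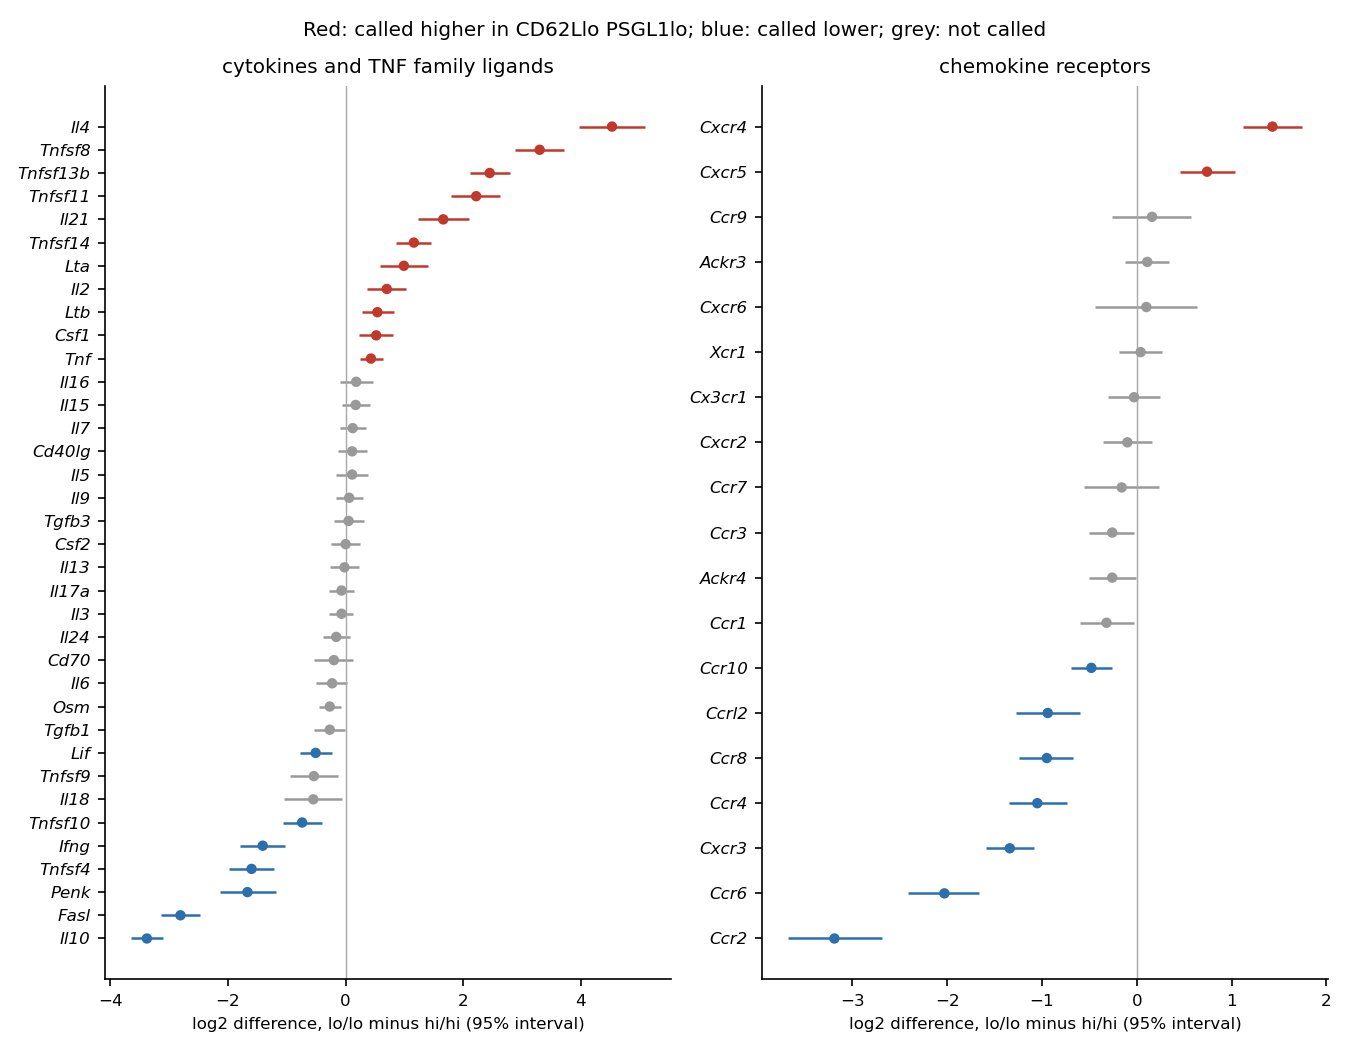
Log2 difference, double-low minus double-high, with its 95% interval for 36 cytokine and TNF ligand genes (left) and 19 chemokine receptor genes (right); red was called higher, blue lower, grey not called. Ligands run from Il4 at 4.53 to Il10 at -3.38, and receptors from Cxcr4 at 1.43 to Ccr2 at -3.19.

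Of 19 chemokine receptor genes, 2 were called higher (10.5%, against 6.70% of all genes) and 7 lower (36.8%, against 8.10%), with a median of -0.26. Cxcr5, the receptor for CXCL13 that leads cells into B cell follicles, was at 1.87, 1.4 and 2.14 in double-low cells, against 1.07, 1.07 and 1.05 in double-high cells (0.74 ± 0.14, adjusted p = 0.001). Its naive mean was 0.0634, so the double-high arrays were also far above the naive ones. Cxcr4, the receptor for CXCL12, was 1.43 ± 0.15 higher. Ccr2, which guides cells to CCL2 in inflamed tissue, was at 0.293, 0.256 and 0.135 in double-low cells, against 1.71, 2.61 and 1.71 in double-high cells (-3.19 ± 0.23; -2.05 as the mean of its probe sets). Ccr6, a receptor of Th17 and memory cells, was -2.03 ± 0.18 lower, the Th1 receptor gene Cxcr3 -1.34 ± 0.12 and the skin homing receptor gene Ccr4 -1.05 ± 0.14. Ccr7, the receptor for lymph node entry and T zone positioning, was at 0.968, 1.01 and 0.994 in double-low cells, against 0.712, 1.32 and 1.45 in double-high cells. The double-low arrays lay inside the double-high range, at -0.16 ± 0.19 (adjusted p = 0.711), and without double-high replicate 1 the difference was -0.48 and passed the threshold (adjusted p = 0.00558).

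Receptors of the sphingosine phosphate system, in which S1PR1 drives exit from lymphoid tissue and S1PR2 holds cells in germinal centres, moved in opposite directions. S1pr2 was at 4.59, 2.64 and 3.59 in double-low cells, against 0.906, 0.886 and 0.884 in double-high cells (1.98 ± 0.15). S1pr1 was at 0.429, 0.802 and 0.39 in double-low cells, against 0.946, 1.48 and 1.28 in double-high cells (-1.25 ± 0.22). Neither gene had overlapping arrays. Klf2, the factor that activates S1pr1, was at 0.234, 0.338 and 0.212 in double-low cells, against 1.06, 1.4 and 1.21 in double-high cells (-2.25 ± 0.15). S1pr4 was -1.02 ± 0.10 lower, and S1pr5 at -0.45 ± 0.31 was not called (adjusted p = 0.452). Lpar3, a receptor for lysophosphatidic acid, rose by 2.41 ± 0.16. Rgs10 rose by 1.73 ± 0.16 while Rgs1 was lower at -1.92 ± 0.16; both encode proteins that shorten G protein signals from such receptors. Over 30 sphingosine receptor and motility genes, 4 were called higher (13.3%) and 12 lower (40%), including Lgals3 (galectin 3, -2.68 ± 0.29), S100a6 (a calcium binding protein, -1.67 ± 0.18) and the intermediate filament gene Vim (-1.44 ± 0.12).

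Of 24 naive and central memory genes, 11 were called lower (45.8%) and 0 higher by limma, at a median of -0.39; averaging the probe sets of a gene, or taking the most variable one, gave 1 higher. Txk, a Tec family kinase of resting T cells, was at 0.157, 0.202 and 0.173 in double-low cells, against 1.31, 1.98 and 1.36 in double-high cells (-3.11 ± 0.14), with a naive mean of 3.95. Satb1, a chromatin organiser of thymocytes and naive cells, was -1.83 ± 0.18 lower, with a naive mean of 9.44. For both genes the order was naive, double-high, double-low. Itga6, the integrin alpha 6 subunit gene, was -1.62 ± 0.14 lower. Lef1, a Wnt pathway factor high in naive cells, was at 0.885, 0.936 and 0.978 in double-low cells, against 1.02, 1.04 and 1.23 in double-high cells (-0.23 ± 0.10, adjusted p = 0.191).

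Th1 and cytotoxic genes gave the largest falls. Of 32 genes, 23 were called lower (71.9%, against 8.10% of all genes) and 3 higher, with a median of -1.93. Gzmb, which encodes the granule protease granzyme B, was at 0.0567, 0.101 and 0.0447 in double-low cells, against 2.08, 4.02 and 1.9 in double-high cells. The difference of -5.31 ± 0.28, 39.6-fold lower, was the lowest of all genes, and the naive mean was 0.0458. Gzmk, another granzyme gene, was at 0.071, 0.0813 and 0.0862 in double-low cells, against 1.97, 2.17 and 1.91 in double-high cells (-4.67 ± 0.13). Nkg7, a granule membrane protein gene, was -4.38 ± 0.11 lower, and Ctla2a, an inhibitor of cathepsin L, -5.13 ± 0.19 lower. Ctsw, the gene of cathepsin W of cytotoxic cells, was at -3.04 ± 0.12.

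Transcription factors of this list differed in direction. Eomes, the T-box factor of cytotoxic and memory cells, was at 0.0886, 0.105 and 0.0901 in double-low cells, against 2.22, 2.45 and 2.3 in double-high cells (-4.62 ± 0.15). Tbx21, which encodes T-bet, the Th1 factor, was at 0.417, 0.352 and 0.551 in double-low cells, against 1.53, 1.54 and 1.45 in double-high cells (-1.80 ± 0.14). The double-low T-bet level stayed above the naive mean of 0.0771. Stat4, which transmits interleukin 12 signals, was 1.16 ± 0.15 higher instead, and so was Tnf at 0.43 ± 0.09. Zeb2, a repressor that acts with T-bet, was 1.18 ± 0.15 higher, a call that was lost with its most variable probe set (adjusted p = 0.0582). Id2, an inhibitor of E proteins, differed by -0.35 ± 0.28 (adjusted p = 0.536).

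Of 20 chemokine genes, 2 were called higher (10%, against 6.70% of all genes) and 6 lower (30%, against 8.10%), with a median of -0.02. The higher calls were Cxcl10 and Cxcl11, and that of Cxcl11 was kept under 4 of the 13 alternatives. Ccl5 was at 0.13, 0.21 and 0.174 in double-low cells, against 1.86, 2.29 and 1.79 in double-high cells (-3.55 ± 0.15). Ccl3 and Ccl4, genes of inflammatory chemokines, were at -3.07 ± 0.14 and -2.96 ± 0.15. Il18r1 and Il18rap, the chains of the interleukin 18 receptor, were at -3.35 ± 0.13 and -2.05 ± 0.15. In contrast Cxcl10, a ligand of CXCR3, was at 3.06, 1.77 and 2.72 in double-low cells, against 0.891, 0.813 and 0.963 in double-high cells (1.47 ± 0.20). Il10ra (-2.62 ± 0.13; -1.03 as the mean of its probe sets), Ifngr1 (-1.80 ± 0.13) and Il4ra (-1.50 ± 0.13; -0.78 as such a mean), which encode chains of the receptors for interleukin 10, interferon gamma and interleukin 4, were lower. Il1r1, the signalling receptor for interleukin 1, rose by 1.88 ± 0.15 (0.96 as the mean of its probe sets). Of 28 cytokine receptor genes 5 were called higher (17.9%) and 10 lower (35.7%); the higher calls numbered 1 with only the 6 arrays or without double-low replicate 1, 2 without double-high replicate 1 or 2, and 3 without double-low replicate 3.

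Of 17 markers of NK and CD8 T cells, 5 were called lower (29.4%, against 8.10% of all genes), 1 higher (5.88%, against 6.70%) and 11 were not called. The mean ratio of the list ranged from 0.756 to 0.829 in double-low arrays, against 1.08 to 1.44 in double-high arrays. Klrd1, the CD94 receptor chain gene, was at 0.146, 0.126 and 0.143 in double-low cells, against 1.31, 0.662 and 1.41 in double-high cells (-2.95 ± 0.29). Klrg1, a receptor of terminal effector cells that is also in the Th1 and cytotoxic list, was -3.50 ± 0.23 lower, and Klrc1, an NKG2 chain gene, -1.97 ± 0.43 (-0.95 as the mean of its probe sets). Ratios give no level at which a marker is absent, and the part of these markers in the cytotoxic result was not tested.

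Of 22 regulatory T cell genes, 11 were called lower (50%, against 8.10% of all genes) and 3 higher (13.6%, against 6.70%), at a median of -0.39. Foxp3, the lineage factor, was at 0.182, 0.108 and 0.131 in double-low cells, against 2.37, 1.83 and 2.21 in double-high cells (-3.95 ± 0.17, 15.5-fold lower). The double-low arrays were also below the naive mean of 0.367. Itgae, the CD103 integrin chain gene, was at -4.32 ± 0.21, and Swap70, a Rac-binding protein gene, at -2.60 ± 0.23. Il2ra, the CD25 gene, was -1.21 ± 0.18 lower, with -3.52 for its most variable probe set and -2.37 as the mean of its probe sets. Ctla4, which encodes an inhibitory receptor of regulatory and activated cells, was at 1.46, 1.17 and 1.2 in double-low cells, against 1.05, 1.13 and 0.875 in double-high cells (0.33 ± 0.13, adjusted p = 0.128). Izumo1r, the folate receptor 4 gene used to mark both regulatory and follicular helper cells in mice, rose by 1.09 ± 0.11.

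Other lineage factors did not follow a single direction. Gata3, the Th2 factor, was at 1.85, 1.46 and 1.32 in double-low cells, against 0.804, 0.813 and 0.75 in double-high cells (0.95 ± 0.13). Rora and Ahr, factors of Th17 cells, were lower at -0.85 ± 0.14 and -1.52 ± 0.22. Vdr, the vitamin D receptor gene, was at 8.16, 7.24 and 9.45 in double-low cells, against 0.76, 0.819 and 0.473 in double-high cells (3.63 ± 0.27). Over 60 T cell transcription factor genes, 13 were called higher and 17 lower (21.7% and 28.3%, against 6.70% and 8.10% of all genes), a median of -0.07.

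**Figure D3:**
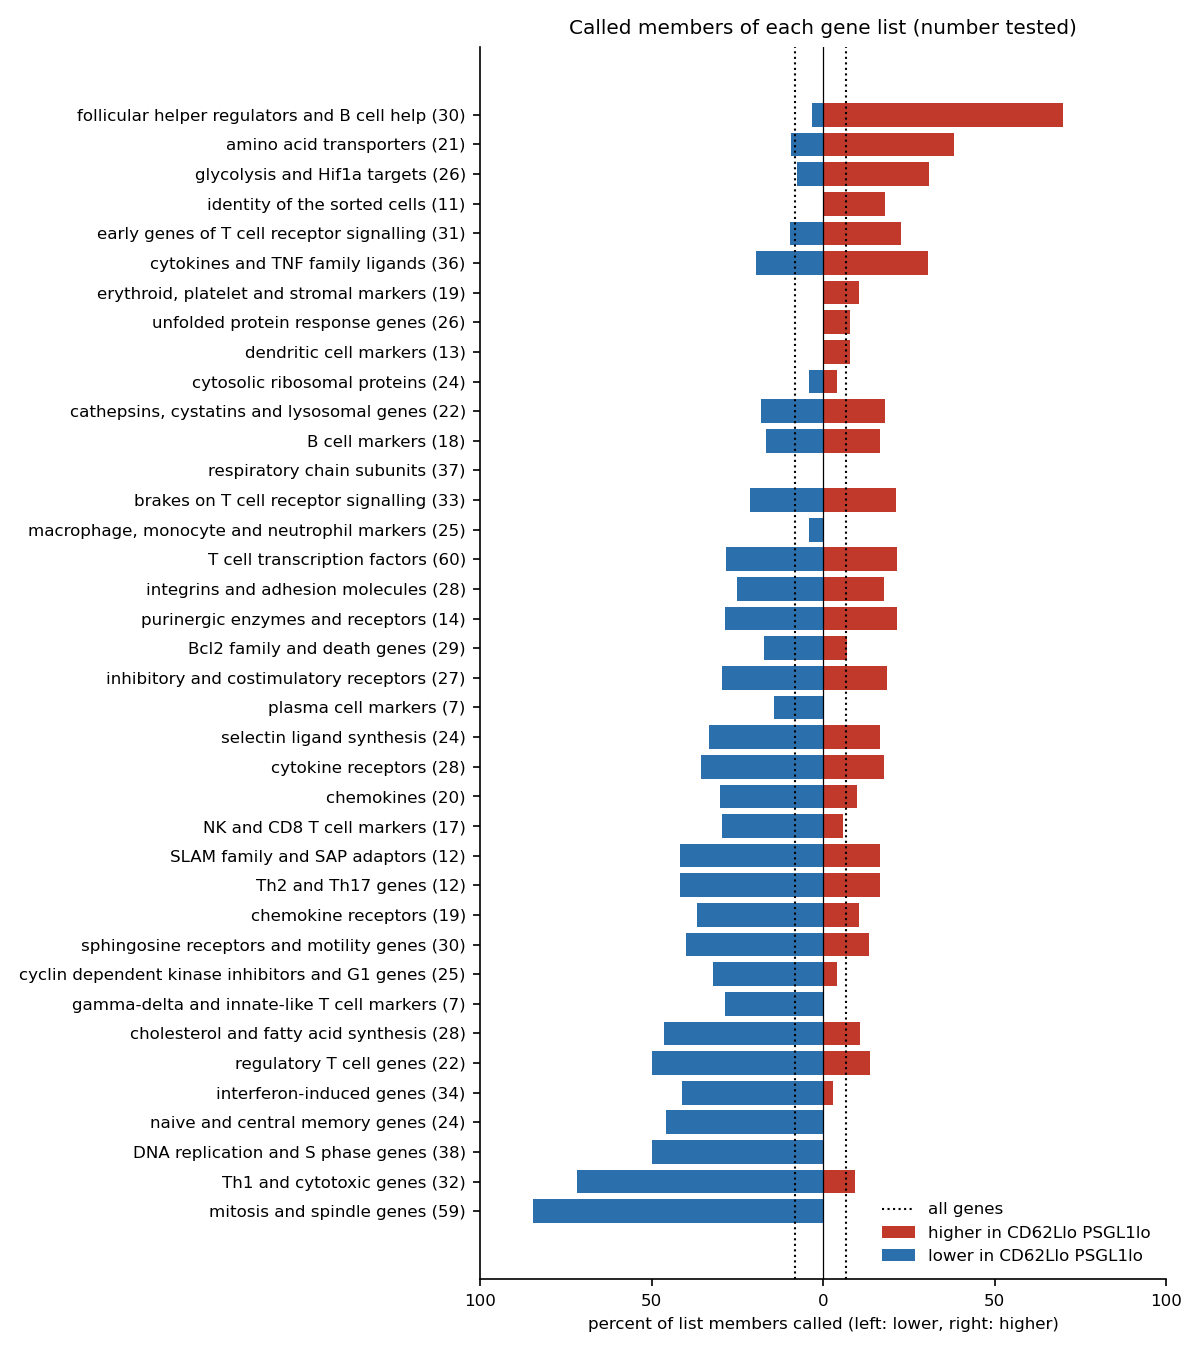
Percent of members called lower (left, blue) and higher (right, red) in double-low cells for 38 gene lists, with the number tested; dotted lines mark all genes, 6.70% higher and 8.10% lower. Helper genes reach 70% higher, and mitosis genes 84.7% lower.

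Cell division genes were the other large block of falls. Of 59 mitosis and spindle genes, 50 were called lower (84.7%, against 8.10% of all genes) and 0 higher by limma, and the median was -1.50. The fit without double-low replicate 2 called 1 higher, and the number lower ranged from 50 to 55 over the alternatives. Mki67, which encodes the Ki-67 antigen of dividing cells, was at 0.591, 0.625 and 0.853 in double-low cells, against 2.53, 3.02 and 3.62 in double-high cells (-2.15 ± 0.16). Prc1, which bundles spindle midzone microtubules, was at 0.474, 0.465 and 0.551 in double-low cells, against 2.3, 2.56 and 3.62 in double-high cells (-2.48 ± 0.18). Racgap1 and Anln, genes of cytokinesis, were at -2.27 ± 0.15 and -2.30 ± 0.17 (-1.67 and -1.33 as the means of their probe sets), and the spindle motor gene Kif11 at -2.25 ± 0.18. Each of these genes was higher in every double-high array than in any double-low array. Foxm1 and Mybl2, regulators of mitotic genes, were at -0.29 ± 0.11 and -0.49 ± 0.19 and were not called (adjusted p = 0.101 and 0.0988; 0.0404 for Foxm1 without double-high replicate 1 and 0.0111 for Mybl2 with the replicate block).

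Replication genes fell less far. Of 38, 19 were called lower (50%) and 0 higher by limma and by each alternative, with a median of -0.47; all 38 differences were below 0. E2f2, an S phase regulator, was at 0.552, 0.371 and 0.564 in double-low cells, against 2.14, 1.99 and 2.11 in double-high cells (-2.09 ± 0.14). Cdc6, which loads the replicative helicase, was at 0.754, 0.599 and 0.971 in double-low cells, against 3.11, 2.67 and 3.9 in double-high cells (-2.07 ± 0.17). Rrm2, a ribonucleotide reductase subunit gene, was at -2.04 ± 0.23, and E2f1 at -0.52 ± 0.19 was not called (adjusted p = 0.0774; 0.00517 with the replicate block). For Top2a, the topoisomerase gene, the probe set taken by rule read -0.01 ± 0.11, whereas its most variable probe set read -2.28 and was called.

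Beside these genes the proto-oncogene Myb was at 0.593, 0.624 and 0.575 in double-low cells, against 2.65, 2.51 and 2.19 in double-high cells (-2.03 ± 0.12), and Myc was -0.57 ± 0.14 lower. Cdkn1a, which encodes p21, was -0.75 ± 0.17 lower, Cdkn2c, which encodes p18, -0.58 ± 0.10 lower, and the antiproliferative gene Tob1 -1.71 ± 0.23 lower (-0.80 as the mean of its probe sets). Of 25 cyclin dependent kinase inhibitor and G1 genes 8 were called lower (32%) and 1 higher (4%), which was Cdkn1c, the gene of the inhibitor p57, at 0.55 ± 0.14, a call lost without double-low replicate 3 (adjusted p = 0.0527) or double-high replicate 2 (0.0589); with the replicate block 3 were higher, and with the most variable probe set 12 were lower.

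Because the mitosis and replication genes were lower together, the promoters of the 3 called genes of each list with the largest differences among those in the promoter table are shown, for the motifs through which cell cycle genes are known to be timed: CCAAT, bound by NF-Y, TTTGAA, the cell cycle homology region (CHR), and the E2F motif, taken as TTTCCCGC or TTTGGCGC. Both strands were searched in 300 bases, from 250 before to 50 from the start site on, in the RefSeq promoter table (GRCm38.p6). Capitals mark every motif, including its reverse complement, and matches of different motifs may share end bases.
Prc1, chr7:80294201-80294500, plus strand: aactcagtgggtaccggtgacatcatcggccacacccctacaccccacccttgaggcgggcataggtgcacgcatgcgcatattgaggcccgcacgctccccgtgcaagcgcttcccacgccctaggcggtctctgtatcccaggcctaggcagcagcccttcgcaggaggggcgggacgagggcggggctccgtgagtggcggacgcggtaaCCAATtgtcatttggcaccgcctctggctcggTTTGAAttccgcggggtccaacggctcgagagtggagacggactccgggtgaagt
Anln, chr9:22389157-22389456, minus strand: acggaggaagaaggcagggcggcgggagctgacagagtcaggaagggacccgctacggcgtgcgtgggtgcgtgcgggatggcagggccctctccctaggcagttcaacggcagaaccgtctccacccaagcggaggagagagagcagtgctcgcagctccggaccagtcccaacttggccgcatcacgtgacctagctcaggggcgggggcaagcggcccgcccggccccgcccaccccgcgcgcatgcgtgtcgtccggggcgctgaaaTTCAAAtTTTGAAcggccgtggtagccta
Birc5, chr11:117848987-117849286, plus strand: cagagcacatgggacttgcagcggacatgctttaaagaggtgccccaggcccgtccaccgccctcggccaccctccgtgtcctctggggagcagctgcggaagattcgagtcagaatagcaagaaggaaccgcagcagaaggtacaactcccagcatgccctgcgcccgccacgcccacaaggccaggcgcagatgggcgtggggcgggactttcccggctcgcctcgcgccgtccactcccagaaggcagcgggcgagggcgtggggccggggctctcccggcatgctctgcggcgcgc
E2f2, chr4:136172024-136172323, plus strand: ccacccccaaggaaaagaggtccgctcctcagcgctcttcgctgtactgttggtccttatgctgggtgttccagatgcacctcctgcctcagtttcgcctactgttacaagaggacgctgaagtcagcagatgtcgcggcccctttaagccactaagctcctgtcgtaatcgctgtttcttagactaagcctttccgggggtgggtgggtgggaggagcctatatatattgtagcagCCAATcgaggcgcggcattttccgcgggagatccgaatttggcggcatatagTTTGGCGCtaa
Cdc6, chr11:98907901-98908200, plus strand: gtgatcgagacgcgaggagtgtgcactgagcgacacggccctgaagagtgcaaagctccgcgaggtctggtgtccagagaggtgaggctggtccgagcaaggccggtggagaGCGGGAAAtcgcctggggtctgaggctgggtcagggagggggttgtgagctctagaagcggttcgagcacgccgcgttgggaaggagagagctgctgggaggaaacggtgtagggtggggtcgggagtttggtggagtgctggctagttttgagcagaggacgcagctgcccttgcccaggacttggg
Rrm2, chr12:24708004-24708303, plus strand: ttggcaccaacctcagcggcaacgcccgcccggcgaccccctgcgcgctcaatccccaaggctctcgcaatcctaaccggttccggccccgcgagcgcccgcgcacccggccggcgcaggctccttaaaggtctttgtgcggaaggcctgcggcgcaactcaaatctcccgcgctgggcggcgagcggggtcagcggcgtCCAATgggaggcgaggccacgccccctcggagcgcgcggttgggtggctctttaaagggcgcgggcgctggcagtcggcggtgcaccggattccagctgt
Prc1 has CCAAT at position -37 and TTTGAA at position -5 (position 1 is the start site, and -1 the base before it). Anln has TTTGAA on each strand, at positions 22 and 29, and no CCAAT. Birc5, the gene of the mitotic regulator survivin, has none of the motifs in this window. E2f2 has CCAAT at position -13 and an E2F motif at position 40, and Cdc6 an E2F motif on the opposite strand at position -138. Rrm2 has CCAAT at position -50 and no E2F motif.

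Over the 50 promoters found for 46 mitosis genes, 74% held TTTGAA, against 13.4% of the 18109 promoters of genes tested, and 70% held CCAAT, against 37.4%. Both together were in 62%, against 5.23%, and the E2F motif in 4%, against 2.34%. Over the 40 promoters of 32 replication genes, 30% held the E2F motif and 17.5% TTTGAA. Helper genes (33 promoters) held TTTGAA in 21.2% and no E2F motif, and Th1 and cytotoxic genes (36 promoters) held TTTGAA in 22.2%. A match is a description of these letters, and not a site or a cause.

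**Figure D4:**
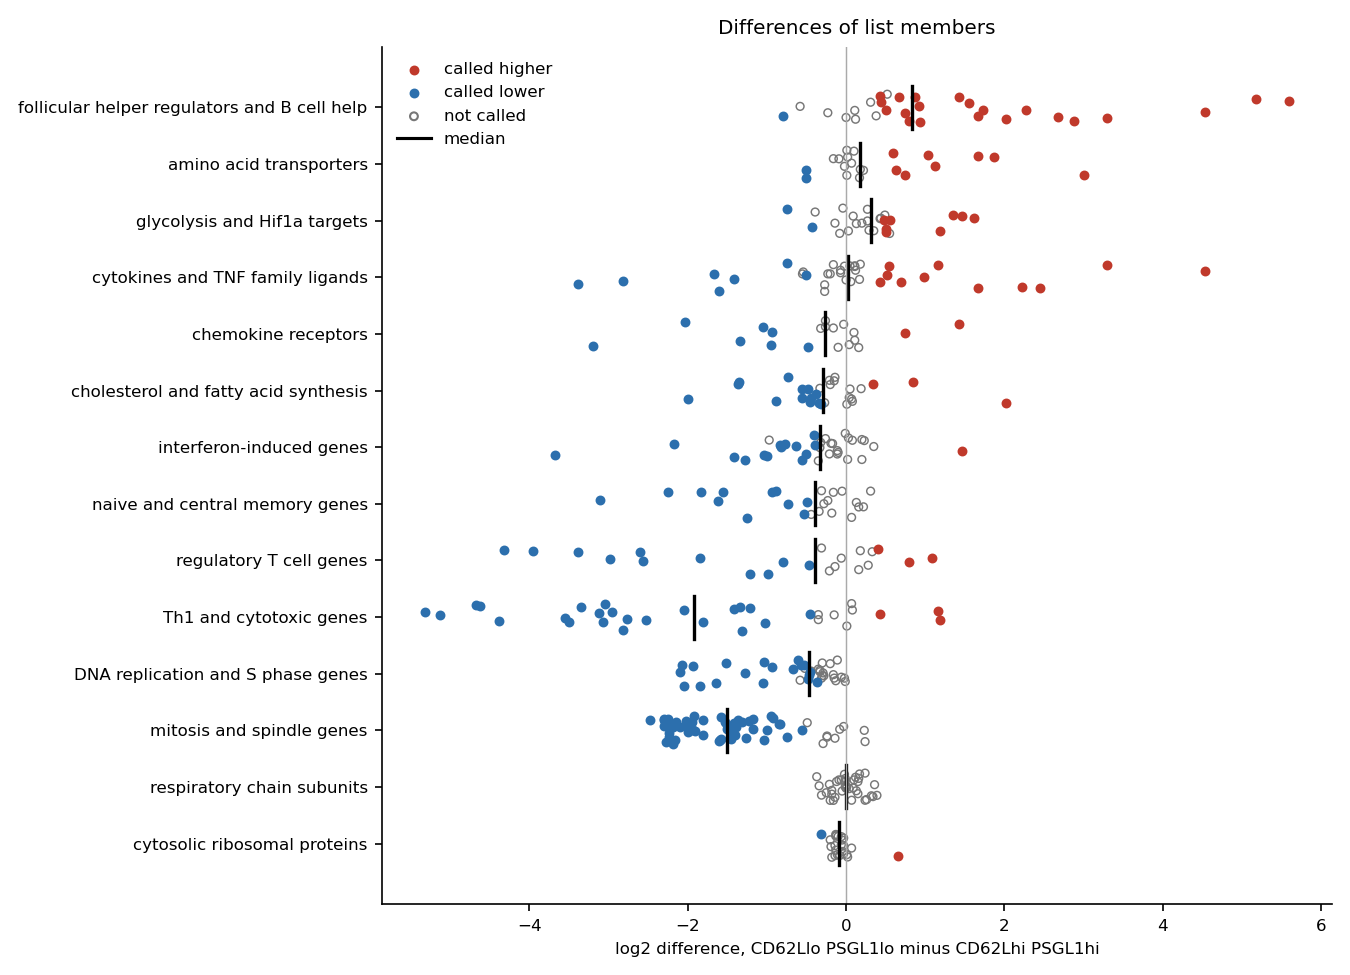
Log2 difference, double-low minus double-high, of every member of 14 gene lists; filled points were called, open points were not, and black bars give list medians. Mitosis genes cluster at a median of -1.50, Th1 and cytotoxic genes spread from -5.31 upward, and respiratory chain subunits lie within 0.39 of 0.

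The CD62Llo PSGL1hi cells are low in CD62L alone. Comparisons with them share arrays with the comparison above, so their counts and p-values are not independent of it. Over the mitosis list the median log2 ratio was -0.49, -0.66 and -0.20 in the double-low arrays, -0.25, -0.17 and -0.01 in the CD62Llo PSGL1hi arrays, and 0.65, 1.06 and 1.52 in the double-high arrays. In the naive arrays, from younger mice, the median of this list was 0.08, 0.03 and 0.01, so the double-high arrays stood highest of all. CD62Llo PSGL1hi minus double-high had 45 of the 59 mitosis genes lower (1.40% of all genes were) and a median of -1.21, while double-low minus CD62Llo PSGL1hi had 10 lower (6.17% of all genes were), 1 higher and a median of -0.31. Over the Th1 and cytotoxic list the medians were -1.15, -1.21 and -0.73 in the double-low arrays, 0.99, 0.76 and 1.07 in the CD62Llo PSGL1hi arrays, and 0.69, 0.62 and 0.51 in the double-high arrays. For this list double-low minus CD62Llo PSGL1hi had 24 of 32 lower at a median of -2.16, and CD62Llo PSGL1hi minus double-high had 5 higher and 0 lower by limma (0.704% of all genes were higher).

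Of the 30 helper genes, 20 were higher in double-low minus CD62Llo PSGL1hi (4.55% of all genes were), and 4 were higher and 2 lower in CD62Llo PSGL1hi minus double-high. Some genes had a middle level in the CD62Llo PSGL1hi cells. Sostdc1 had a mean ratio of 2.25 there, at 1.97 ± 0.28 above double-high (adjusted p = 0.000772), Tnfsf8 was 1.42 ± 0.20 above it and Tnfsf11 1.43 ± 0.20 above it. Slamf7, an activating receptor gene of the SLAM family, was at 0.313, 0.306 and 0.317 in double-low cells, 2.13 on average in CD62Llo PSGL1hi cells, and 5.36, 5.53 and 5.39 in double-high cells. That made -4.12 ± 0.13 for double-low and -1.38 ± 0.13 for CD62Llo PSGL1hi cells against double-high.

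**Figure D5:**
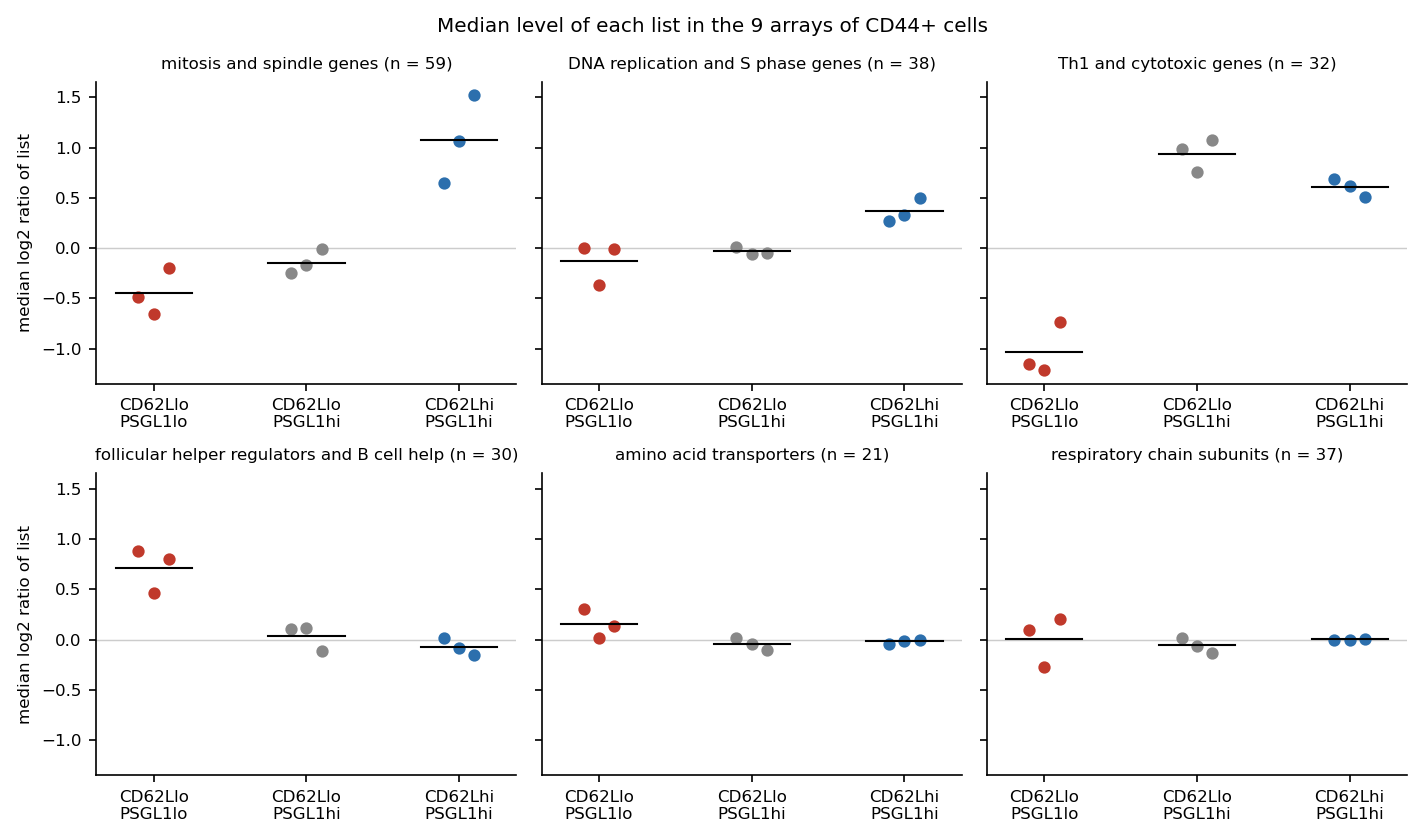
Median log2 ratio of 6 gene lists in each array of double-low (red), CD62Llo PSGL1hi (grey) and double-high cells (blue), with the group mean as a bar. Of these 9 arrays, the double-high ones are highest for mitosis genes (0.65 to 1.52), and the double-low ones are lowest for Th1 and cytotoxic genes (-1.21 to -0.73).

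Some amino acid transporter and hypoxia factor target genes rose in double-low cells. Slc1a4, which carries alanine, serine and cysteine, was at 10, 4.04 and 7.56 in double-low cells, against 0.796, 0.744 and 1 in double-high cells (3.00 ± 0.25; 4.01 for its most variable probe set). Slc7a10, a carrier of small neutral amino acids, rose by 1.87 ± 0.19, and Slc16a10, which carries aromatic amino acids, by 1.66 ± 0.14 (2.74 for its most variable probe set). Slc7a5, the leucine carrier induced by T cell activation, differed by 0.18 ± 0.16 (adjusted p = 0.596). Of 21 transporter genes 8 were called higher and 2 lower (38.1% and 9.52%, against 6.70% and 8.10% of all genes). The 2 lower calls were both lost with only the 6 arrays or without double-low replicate 2, and 1 remained without any of the other 5 arrays in turn. Hif1a, the hypoxia-inducible factor, was at 2.7, 1.98 and 2.46 in double-low cells, against 1.07, 0.817 and 0.723 in double-high cells (1.46 ± 0.15; 2.23 for its most variable probe set). Its target Bnip3, a mitophagy receptor gene, rose by 1.62 ± 0.20, the glycolytic enzyme gene Tpi1 by 1.35 ± 0.21 and Egln3, an oxygen-sensing hydroxylase gene, by 1.18 ± 0.16 (3.14 for its most variable probe set).

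Of 26 glycolysis and Hif1a target genes 8 were called higher (30.8%, against 6.70% of all genes), 2 lower (7.69%, against 8.10%) and 16 not. The median was 0.32. The 2 lower calls, Slc2a3 (-1.68 for its most variable probe set, against -0.43) and Car12, were both lost without double-low replicate 2, double-high replicate 2 or double-high replicate 3, and 1 was left without double-low replicate 1. The number higher was 15 without double-low replicate 2, 12 with the replicate block, and 5 without double-low replicate 1, without double-low replicate 3, without double-high replicate 1 or with only the 6 arrays. Pgam1, a glycolytic mutase gene, shows that array: it was at 1.95, 0.992 and 1.67 in double-low cells, against 1.01, 0.983 and 1.04 in double-high cells (0.55 ± 0.18, adjusted p = 0.0565; 0.0199 with the replicate block, 0.000156 without double-low replicate 2). Replicate 2 alone lay among the double-high values. Of 37 respiratory chain subunit genes, 0 were called in either direction by limma. The alternatives called 0 to 5 higher, with 5 without double-low replicate 2, and 0 or 1 lower; the replicate block called 1 each way. Sdha, a succinate dehydrogenase subunit gene, had the largest difference, 0.39 ± 0.13 (adjusted p = 0.0507; 0.0338 with the replicate block, 0.0316 without double-low replicate 2 and 0.0214 without double-high replicate 2). Cytosolic ribosomal protein genes had 1 of 24 higher and 1 lower (4.17% each, against 6.70% and 8.10% of all genes). The lower call, Rpl37, was lost with the replicate block (adjusted p = 0.0521) and on leaving out any array but double-low replicate 3. Of 26 unfolded protein response genes, 2 were higher (7.69%, against 6.70% of all genes) and 0 lower by limma. Without double-low replicate 2, 5 were higher, and with the replicate block 1 was lower.

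Cholesterol and fatty acid synthesis went down in part. Elovl6, a fatty acid elongase gene, was at 0.381, 0.467 and 0.546 in double-low cells, against 1.81, 1.95 and 1.72 in double-high cells (-1.99 ± 0.14; -1.35 as the mean of its probe sets). Sqle and Idi1, enzymes of the sterol pathway, were at -1.36 ± 0.12 and -1.35 ± 0.15, whereas Tm7sf2, a sterol reductase gene, rose by 2.02 ± 0.14. Of 28 genes 13 were called lower (46.4%) and 3 higher. The number lower was 6 with only the 6 arrays, 7 after quantile normalization, 7 without double-low replicate 2 and 8 without double-high replicate 2.

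Of 34 interferon-induced genes, 14 were called lower (41.2%) and 1, Cxcl10, higher, with a median of -0.33. Ifit3, an antiviral effector gene, was at 0.255, 0.184 and 0.255 in double-low cells, against 0.882, 1.07 and 1.15 in double-high cells (-2.17 ± 0.16). Ifitm1, a membrane protein that hinders virus entry, was at 0.239, 0.225 and 0.26 in double-low cells, against 2.8, 1.74 and 5.96 in double-high cells (-3.67 ± 0.33). Its double-high arrays differed by more than 3 times among themselves. Usp18, the protease that restrains interferon signalling, was -1.42 ± 0.23 lower.

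Genes under the T cell receptor gave a mixed picture. Spry1, a feedback inhibitor of receptor signalling, rose by 1.52 ± 0.12, and Rnf128, the ubiquitin ligase GRAIL linked to anergy, was at 4.98, 3.18 and 4.14 in double-low cells, against 0.795, 0.757 and 0.531 in double-high cells (2.56 ± 0.22). Nfatc1, a calcium-dependent factor, rose by 0.63 ± 0.11, and Ier3, an early response gene, was -3.22 ± 0.18 lower. Cish, a cytokine-induced brake, was -1.72 ± 0.12 lower. Against 6.70% of all genes higher and 8.10% lower, early response genes had 7 of 31 higher (22.6%) and 3 lower (9.68%), and receptor brakes 7 of 33 higher and 7 lower (21.2% each). Inhibitory and costimulatory receptors were 5 of 27 higher (18.5%) and 8 lower (29.6%); Havcr2, which encodes TIM-3, was at 0.233, 0.183 and 0.228 in double-low cells, against 2.31, 2.67 and 1.77 in double-high cells (-3.38 ± 0.16), and Lag3 differed by -0.10 ± 0.14 (adjusted p = 0.772).

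Of 24 genes listed for selectin ligand synthesis, 8 were called lower (33.3%, against 8.10% of all genes) and 4 higher (16.7%, against 6.70%). Not all members of this list act on PSGL1, so the count is not one of PSGL1 enzymes alone. St3gal6, a sialyltransferase gene, was at 0.0583, 0.0541 and 0.0492 in double-low cells, against 1.81, 1.98 and 1.32 in double-high cells (-4.96 ± 0.16, 31.2-fold lower; -1.95 as the mean of its probe sets). Tpst2, a tyrosine sulfotransferase gene, was -1.43 ± 0.12 lower, Gcnt1, a core 2 branching enzyme gene, -1.25 ± 0.17 lower, and the fucosyltransferase gene Fut7 was at -0.44 ± 0.17 (adjusted p = 0.118; 0.0112 with the replicate block). St8sia1, a ganglioside sialyltransferase gene, rose by 1.43 ± 0.11. Among 28 integrin and adhesion genes 5 were called higher (17.9%) and 7 lower (25%); Itga4, the alpha 4 chain that binds VCAM1 and MAdCAM1, was -1.95 ± 0.14 lower and Itgb8, an activator of TGF beta, rose by 1.26 ± 0.23. The higher calls numbered 3 with only the 6 arrays or without double-low replicate 1 or 3 or double-high replicate 1 or 3.

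In the SLAM family, whose receptors steady T and B cell contacts, Slamf8 rose by 2.18 ± 0.18, and Cd48, a ligand of CD244, was -1.38 ± 0.16 lower along with Slamf7. Of 12 genes 2 were called higher (16.7%) and 5 lower (41.7%); 3 were lower with only the 6 arrays or without replicate 2 of either group, and 1 was higher without double-low replicate 1 or double-high replicate 3. Ada, which removes adenosine, was at 0.176, 0.159 and 0.228 in double-low cells, against 0.961, 0.985 and 1.02 in double-high cells (-2.41 ± 0.13). Entpd1, the CD39 gene that breaks down ATP, was -1.84 ± 0.17 lower, whereas Nt5e, the CD73 gene that makes adenosine, rose by 0.80 ± 0.13 (1.85 for its most variable probe set). Of 29 Bcl2 family and death genes 2 were called higher (6.9%, against 6.70% of all genes) and 5 lower (17.2%, against 8.10%). Over the alternatives 2 to 5 were higher and 3 to 8 lower. The number lower was 8 without double-low replicate 1 and 3 without double-low replicate 2 or double-high replicate 1. The survival gene Bcl2l1 was -0.80 ± 0.11 lower, and its opponent Bcl2l11, which encodes BIM, -0.70 ± 0.11 lower.

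The largest rises held genes less often discussed in T cells. Stfa3, a stefin that inhibits cysteine proteases, was at 34.2, 14.3 and 25.5 in double-low cells, against 0.903, 0.495 and 0.954 in double-high cells (4.95 ± 0.38). Apoe, the apolipoprotein E gene, was at 23.3, 6.85 and 11.4 in double-low cells, against 1.05, 0.593 and 0.596 in double-high cells (4.09 ± 0.35). Its 3 double-low arrays differed widely, but the lowest was still above every double-high array. Lgmn, the lysosomal protease legumain gene, rose by 1.85 ± 0.16, and Ctsz, a cathepsin gene, by 1.10 ± 0.16, while Ctsd, another, was -1.08 ± 0.11 lower. Of 22 cathepsin, cystatin and lysosomal genes 4 were higher and 4 lower (18.2% each), and 7 were higher with the replicate block. Fam71b rose by 4.80 ± 0.25, Gna14, a Gq family subunit gene, by 4.19 ± 0.27, Flrt2, a cell guidance receptor gene, by 3.90 ± 0.28, and Ica1l by 3.67 ± 0.20. Abcc3, an efflux pump gene, rose by 3.50 ± 0.14 and Npnt, a matrix ligand of integrins, by 3.42 ± 0.19 (1.40 as the mean of its probe sets). Among the largest falls not named above were Neb, the giant muscle filament protein gene (-4.32 ± 0.17), Tent5a, a terminal nucleotidyltransferase gene (-3.97 ± 0.15), and Rhoq, a small GTPase gene (-3.96 ± 0.17).

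Of the 226 called genes among the 300 named by rule, 114 had other probe sets, and for 88 of these genes at least 1 other was called the same way. Of the 228 other probe sets of these 114 genes, 138 were called the same way and 0 the opposite way, and the rest were not called. Quantile normalization kept direction and call but moved the size by over 1.5 times for 17 genes described here: differences nearer 0 were Ascl2 (4.54), Fam71b (3.90), Abcc3 (2.89), Cebpa (2.26), Gzmb (-4.72), Ctla2a (-4.39), St3gal6 (-4.09), Gzmk (-3.90), Eomes (-3.99), Tent5a (-3.08) and Klrd1 (-2.18). Those farther from 0 were Slamf7 (-5.03), Tnfsf11 (3.12), Lpar3 (3.21), Rgs10 (2.98), St8sia1 (2.47) and Tm7sf2 (2.78).

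Markers of other cells were followed for the same arrays. Apoe and Stfa3 are also made by myeloid cells, and of 25 macrophage, monocyte and neutrophil markers 0 were called higher and 1 lower (4%, against 8.10% of all genes) by limma, Cd68 at -2.48 ± 0.16; 1 was higher without double-low replicate 2 or double-high replicate 3, 2 were lower without double-low replicate 1 or double-high replicate 2, and 3 were lower with the replicate block. The mean ratio of that list ranged from 0.859 to 1.08 in double-low arrays, against 0.967 to 1.15 in double-high arrays. Lyz2, the lysozyme gene of these cells, was at 1.7, 0.355 and 0.352 in double-low cells, against 0.895, 0.767 and 1.11 in double-high cells, and was not called. Its highest double-low array, replicate 1, was also the highest for Apoe and Stfa3, the helper genes Ascl2 and Sostdc1 and the transporter gene Slc1a4. Il4, Bcl6, Tnfsf8 and Vdr, also higher in double-low cells, were instead highest in double-low replicate 3. Of 18 B cell markers 3 were called higher and 3 lower (16.7% each), with mean ratios of 1.02 to 1.3 in double-low arrays, against 0.966 to 1.16 in double-high arrays. Fcmr, the IgM receptor gene, rose by 1.71 ± 0.16, and Ms4a1, which encodes CD20, was -1.91 ± 0.26 lower. Gamma-delta and innate-like T cell markers had 2 of 7 lower (28.6%), with mean ratios of 0.894 to 0.957 in double-low arrays, against 1.06 to 1.23 in double-high arrays. These were Trgv1 and Trgv4, and the Trgv4 call was kept under 5 of the 13 alternatives. Plasma cell markers had 1 of 7 lower (14.3%), with mean ratios of 0.827 to 1.15 in double-low arrays, against 1.16 to 1.61 in double-high arrays. Dendritic cell markers had 1 of 13 higher, Cd83 (7.69%, against 6.70% of all genes), and with the replicate block also 1 lower. Erythroid, platelet and stromal markers had 2 of 19 higher (10.5%), Kdr and Dcn, and the Dcn call was kept under 7 of the 13 alternatives. The part of these markers in the results above was not tested.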

How the data were processed

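RNA of sorted splenic CD4 T cells was measured on 12 arrays, 3 for each of 4 populations. The submitters' processing notes name MAS5; no version or scaling is stated in the sources used here. The deposited values are linear ratios: the median of a probe set over the arrays was within 0.002 of 1 for 99.7% of 45101 probe sets, and array medians ran from 0.967 to 1.022. How the ratios were made is not given. Ratios hide brightness, so signal over background is unknown and dim genes could not be filtered. For CD62Llo PSGL1hi samples, the description states a different gate from the titles and the design text, which were followed.

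The platform annotation named exactly 1 gene for 34945 probe sets, several for 932 and none for 9160, with 64 controls. Of a gene's probe sets, those without an _a_, _s_ or _x_ suffix, then those with a curated target, then the lowest number were preferred. The log2 values of 18193 genes went into limma 3.58.1 (R 4.3.3), with lmFit and eBayes over all 12 arrays, 8 residual degrees of freedom, two-sided tests and Benjamini-Hochberg adjustment over all genes. The fit was checked on simulated data. Deviations of same-numbered double-low and double-high arrays from their group means correlated at 0.270, 0.128 and 0.270 over genes, and those of other pairs at -0.214 to -0.030, so the numbers were taken to pair the arrays. Deviations within a group cancel out, so the negative values of the other pairs are not separate evidence. The main fit had no term for the replicate number, so its SEs and p-values leave the pairing out. A fit of the CD44+ arrays with the replicate number as a block is quoted beside described genes whose call it changed.

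Members and gene lists were chosen with earlier results of these data known. Genes named were Selplg, Cd44 and Fas; the 12 largest rises and 12 largest falls among called genes whose arrays did not overlap and whose symbol is an ordinary one; per list up to 5 called genes each way by smallest p and 2 not called by largest difference; and 40 fixed genes. Alternatives were the replicate block, only the 6 arrays, median centring, quantile normalization, other probe set rules, robust eBayes and leaving out each array. Promoters came from RefSeq.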

Additional observations from a re-analysis of the deposited data

How the results depend on the processing

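Among alternatives that count genes at the same threshold, the number called ranged from 1910 with only the 6 arrays to 3152 with each gene's most variable probe set, within 1.5 times of 2693. Counted as probe sets, 5242 were called (2419 higher, 2823 lower), and past 2-fold 729 genes (299 higher, 430 lower). Leaving out 1 array gave 2243 to 2806 genes, 924 to 1589 higher and 1217 to 1519 lower, and 328 to 347 list calls, against 350 with all arrays. The replicate block gave 3076 genes (1422 higher, 1654 lower), of which 2637 were shared; of the 300 named genes it took 1 below the threshold, brought 26 past it and changed no other call. Of 226 called named genes, 194 kept direction and call under all 13 alternatives run on them. With the most variable probe set, Cd84 turned to 0.29 (adjusted p = 0.737, against -0.42) and Ctse to -0.68 (adjusted p = 0.00713, against 0.43, not called). With the replicate block Ctse was called at 0.43 (adjusted p = 0.0397). The cause of these 2 turns was not tested. Ratios carry no background level, so what signal over background limits is unknown, and 3 arrays a group limit the precision.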
